A study of Mus musculus with 14 samples.

Results

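The cells described here were DP cells, a sorted class that the labels do not spell out, which carried little melanoma pigment-gene RNA and little alveolar-macrophage RNA, compared between lung and blood of mice injected with fluorescently labelled B16F10 melanoma cells. Cells were selected on measured RNA levels. A DP cell was kept when Pmel, Dct, Tyrp1 and Mlana, genes of melanosomes and pigment synthesis, summed to under 5000 CPM (counts scaled to the same total in each cell) and Chil3 and Plet1, genes high in alveolar macrophages, summed to under 1000 CPM. This kept 138 of 450 DP cells of the tumor-bearing samples, 83 of 273 from blood (30.4%) and 55 of 177 from lung (31.1%). The whole series held 648 cells in 14 samples, and its title asks about the genomic identity of candidate hybrids of tumor cell and leukocyte in the circulation. The 9 tumor-bearing samples were labelled as C57BL/6J females aged 6 to 8 weeks with the treatment "Tumor", and received no drug. Single cells were sorted on markers of tumor and host, which are not named, and their RNA was made into Smart-seq2 libraries, a full-length protocol without molecular identifiers. B16F10 is a melanoma line of C57BL/6 origin, so host and tumor share a strain. The labels do not say whether each sample is 1 animal, and p-values over samples may then measure technical spread only.

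Macrophages clear dying cells and debris and take on different gene programmes in different tissues. C1qa, C1qb and C1qc encode the chains of C1q, the recognition part of classical complement, and mark many tissue macrophages. Spp1 encodes osteopontin, a secreted matrix protein high in lipid-laden macrophages of damaged tissue and tumors, and Ccl4 encodes a chemokine that draws monocytes and T cells. Macrophages of the pleural and peritoneal cavities carry a further programme with Alox15, Prg4, Selp and F5 among its genes, and macrophages that sense damage or microbial products switch on chemokines, Tnf and interferon-induced genes through NF-kB and interferon signalling.

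Kept cells of both tissues came from 4 samples. Replicate 1 (labelled C1L) gave 3 blood and 6 lung cells, replicate 2 (C1N) 10 and 13, replicate 3 (C1R) 2 and 7, and replicate 7 (P1) 35 and 8. These 50 blood and 34 lung cells formed the paired comparison. Replicates 6 (C3R) and 9 (P4) gave 19 and 14 blood cells only, and replicates 4 (C2N), 5 (C2R) and 8 (P2) gave 6, 12 and 3 lung cells only. Replicate 5 had 39 blood DP cells, none of which met the rule. A kept cell had a median of 7.96 M counts (M for mega) and 7078 detected genes in blood and 5.70 M counts and 5988 genes in lung, and the 8 paired sums held 8.53 to 329.5 M counts. The smallest sum, the blood of replicate 3, rested on 2 cells. No cell name occurred in more than 1 sample.

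The rule fixed the pigment and alveolar genes, so their levels are description only. The cells nearest to the pigment limit had sums of 4077, 4322 and 4942 CPM inside it and 5023, 5627 and 5828 CPM outside it. Nearest to the alveolar limit were 460, 619 and 665 CPM inside and 2844, 2984 and 4353 CPM outside. The pigment limit thus ran through a continuous range, while the alveolar limit lay in a gap. Under the pigment limit, 46 of 83 blood cells and 36 of 55 lung cells still held at least 100 CPM of the 4 pigment genes, with medians of 115 and 190 CPM.

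Most kept cells carried macrophage RNA. At least 500 CPM of a macrophage set (Csf1r, Cd68, Adgre1, Lyz2 and the 3 C1q genes) was found in 71 of 83 blood cells (85.5%, exact Clopper-Pearson 95% interval 76.1 to 92.3%) and 45 of 55 lung cells (81.8%, 69.1 to 90.9%). The 3 C1q genes together reached 100 CPM in 66 blood and 44 lung cells. Of the other markers named for these cells, Spp1 reached 100 CPM in 27 blood and 36 lung cells, and Ccl4 in 10 and 30. The C1q genes were therefore present in most cells of both tissues and Ccl4 in few blood cells, and the class was not pure. The intervals pool cells over samples as if independent, so they leave out the spread between samples. The macrophage set was met by 8 of 19 blood cells in replicate 6 and 35 of 35 in replicate 7. In lung it was met by 2 of 6 cells in replicate 1 and 12 of 12 in replicate 5. PCR copies were counted as reads, and the intervals do not allow for that either.

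The other cells differed between tissues and between samples. At least 500 CPM of a fibroblast set (Col1a1, Col3a1, Mgp) was found in 12 lung cells and 1 blood cell, and 8 of the 12 lung cells lacked the macrophage set. Of these 12, 4 were among the 6 lung cells of replicate 1, 7 among the 13 of replicate 2 and 1 among the 6 of replicate 4. At least 500 CPM of a B-cell set (Cd79a, Cd79b, Ms4a1) was found in 11 blood cells, in 5 of the 6 blood samples, and in 0 of 55 lung cells, which allows a share of up to 5.45% when 3 cells are taken as the limit that a count of 0 allows. All 11 also carried the macrophage set, and whether such a well held 1 cell or more cannot be told apart. Cells with T or NK cell or neutrophil sets numbered 0 of 83 in blood, which by the same limit allows up to 3.61%, and 0 of 55 in lung.

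Replicate 6 stood apart. Of its 19 blood cells, 11 met none of the sets, held 844 to 4322 CPM of the 4 pigment genes and had at most 1.08 CPM of Ptprc, the pan-leukocyte phosphatase CD45. Their other melanocyte genes summed to a median of 1430 CPM, against 36.2 CPM over all kept blood cells. Those cells went against the reading of the class as macrophages, and they were not in the paired test, which replicate 6 could not enter. In lung, 1 cell of replicate 2 and 1 of replicate 8 met no set. The stacked bars of marker sets show that all blood cells of replicates 1, 2, 3 and 7 carried the macrophage set while the lung of replicates 1 and 2 was mixed.

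**Figure D1:**
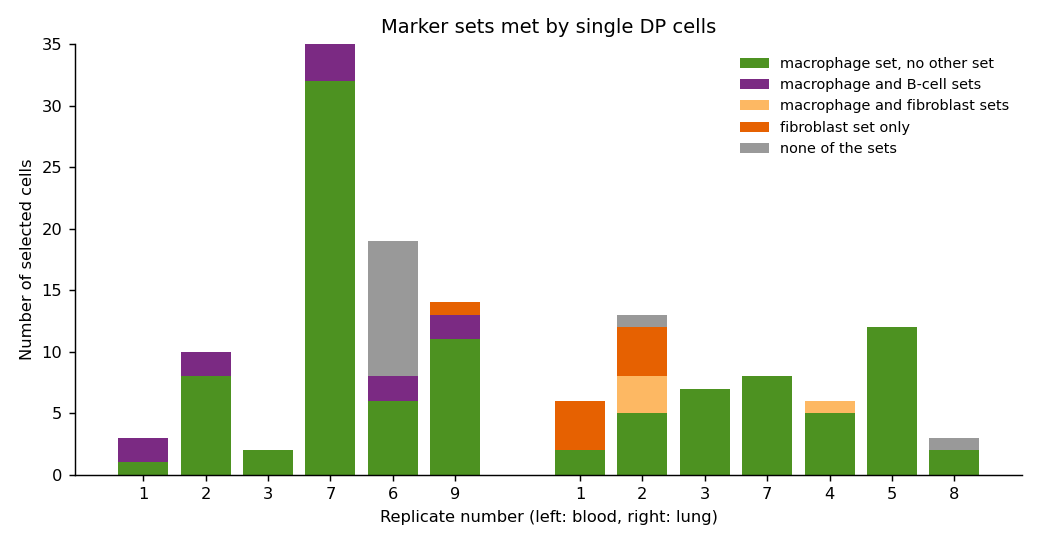
Number of kept DP cells by the marker sets they met (y axis) in each sample (x axis, replicate number, blood at left and lung at right), with colours for the sets. Cells with the fibroblast set lie in the lung of replicates 1, 2 and 4 and in 1 blood cell, cells with both the macrophage and B-cell sets lie in blood, and the 11 blood cells without a set are all of replicate 6.

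Counts were summed per sample and tissue, and lung was compared with blood within the 4 samples in edgeR's quasi-likelihood test with a term for the sample. The chemokine genes Ccl2, Ccl4, Ccl7, Cxcl1 and Cxcl10, the cytokine gene Tnf and the interferon-induced genes Rsad2 and Oasl1 rose in lung. The B-cell genes Cd79a, Cd79b and Ms4a1, the serous-cavity macrophage genes Alox15, Cd5l and F5 and the monocyte genes Ifitm6 and Mcemp1 fell. Of 11245 genes tested, 27 were higher in lung and 15 lower at an adjusted p (Benjamini-Hochberg over all genes tested) under 0.05, together 42 genes or 0.373%. The background in one direction was 0.24% for higher and 0.133% for lower. The C1q genes, the general macrophage genes and Spp1 did not pass in this fit. Spp1 passed among cells with macrophage markers. It also passed over all kept cells when replicate 1 was left out or each cell was thinned to 200000 counts.

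The calls depended on the term for the sample. With it, 632 of the 11245 genes (5.62%) had an unadjusted p under 0.05. Without it the same 8 sums gave 0 calls, both on the 9204 genes that the low-count filter then kept (503 or 5.47% at an unadjusted p under 0.05) and, tried after seeing the data, on the same 11245 genes (1248 or 11.1%). The median fitted log2 difference over all genes was -0.239, so a gene of no difference sat slightly below 0. Leaving out 1 sample gave 75 calls without replicate 1, 12 without replicate 2, 31 without replicate 3 and 93 without replicate 7. DESeq2 called 1532 genes, among them 39 of the 42.

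Because stromal and B-cell markers moved with tissue, the comparison was repeated on cells with the macrophage set and neither of the other sets. This left 43 blood and 22 lung cells, and dropped replicate 1 from the fit because its blood kept 1 such cell, so replicates 2, 3 and 7 entered. Here 50 of 10481 genes (0.477%) passed in edgeR's quasi-likelihood test, 43 higher (0.41%) and 7 lower (0.0668%) in lung, and 19 were among the 42. The 19 were the chemokines Ccl2, Ccl4, Ccl7, Cxcl1 and Cxcl10, the cytokine genes Tnf, Tnfsf9 and Ifnb1, the interferon-induced Rsad2 and Oasl1, Gadd45b, Gdf15, Fth1 and Sdc4 in the higher direction, and Alox15, Cd5l, F5, Ifitm6 and Ticam2 in the lower. Without the sample term, and with every sample of these macrophage-set cells, 6 genes passed and none was among the 42.

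**Figure D2:**
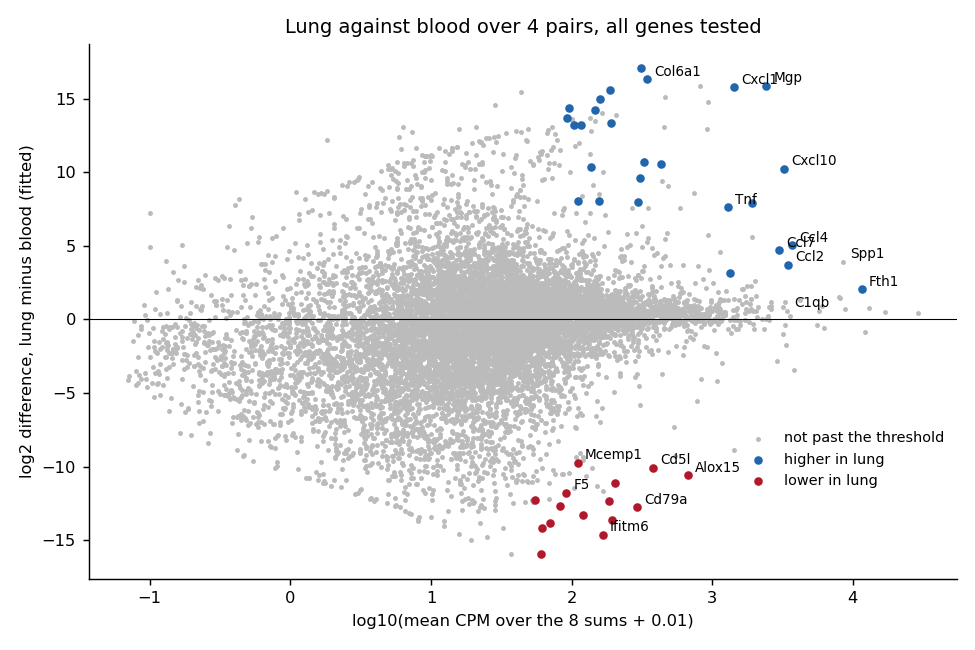
Fitted log2 difference of lung minus blood (y axis) against the log10 of the mean CPM over the 8 sums plus 0.01 (x axis) for the 11245 genes tested, with the genes past the threshold coloured and named genes marked. The 27 genes higher and the 15 lower in lung lie at the edges of a cloud that is widest at low levels.

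Chemokine genes rose in lung. Of 19 chemokine genes tested, 5 rose in lung and 0 fell, 15 had a positive difference, and their median log2 difference was 3.26 against -0.239 over all genes. Among macrophage-set cells 9 of 20 rose and 0 fell, with a median of 3.02 against -0.54 over all genes. For this and the later lists, the background over all 11245 genes was 5165 positive and 6080 negative differences. Among macrophage-set cells it was 4335 positive of 10481.

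Ccl4 (chromosome 11, 83662584 to 83664683, mm10) had 0.0418 CPM in the blood and 0.494 CPM in the lung of replicate 1, 45.9 and 4692 CPM in replicate 2, 1149 and 14929 CPM in replicate 3, and 99.1 and 2065 CPM in replicate 7. Lung was higher in all 4 pairs, although replicate 1 was near 0 in both tissues and its lung lay below the blood of the other samples. The fitted log2 difference was 5.04 (SE 0.669, adjusted p = 3.9e-04 in edgeR's quasi-likelihood test), and it passed in each fit that left out 1 sample. The samples with 1 tissue were ordered alike, with 29.7 and 112 CPM in the blood of replicates 6 and 9 and 3336, 3937 and 981 CPM in the lung of replicates 4, 5 and 8.

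Ccl2 and Ccl7 encode monocyte attractants and lie side by side on chromosome 11 (82035571 to 82037453 and 82045712 to 82047525). Ccl2 had 33.6 and 1231 CPM in the blood and lung of replicate 1, 299 and 4756 in replicate 2, 2160 and 12623 in replicate 3, and 327 and 608 in replicate 7. Ccl7 had 18.4 and 288 CPM, 44.3 and 3732, 566 and 12862, and 178 and 857, in the same order. Both were higher in lung in every pair, and both overlapped between tissues across samples because replicate 3 was high on both sides. The log2 difference was 3.69 for Ccl2 (SE 0.691, adjusted p = 9.5e-03) and 4.70 for Ccl7 (SE 0.716, adjusted p = 1.1e-03), both in edgeR's quasi-likelihood test. Without replicate 3 neither passed, at adjusted p = 0.157 and 0.0918 in the same test, and Ccl2 also missed without replicate 2 at 0.0976. In the lung of replicate 8 Ccl2 had 160 CPM and Ccl7 53.1 CPM, under the 1489 and 1102 CPM in the blood of replicate 9.

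Cxcl1, a neutrophil attractant, was near 0 in paired blood and present in every paired lung. It had 23.8, 0, 0 and 0.0243 CPM in the blood of replicates 1, 2, 3 and 7 and 613, 3370, 3708 and 1207 CPM in their lung. The tissues did not overlap, which held for 510 of 11245 genes (4.54%). At least 100 CPM was found in 0 of 50 paired blood cells and 16 of 34 paired lung cells. The adjusted p was 4.1e-04 in edgeR's quasi-likelihood test, and 0.112 without replicate 3. The blood of replicate 9 had 503 CPM and the lung of replicate 8 had 37.4 CPM, so the samples with 1 tissue did overlap.

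Cxcl10, an interferon-induced chemokine for T cells, was higher in the lung of 3 of 4 pairs. It had 431 and 85.8 CPM in the blood and lung of replicate 1, 0.386 and 625 in replicate 2, 0.352 and 18276 in replicate 3, and 1.40 and 646 in replicate 7. Its adjusted p of 0.0340 in edgeR's quasi-likelihood test rose to 0.696 without replicate 2 and 0.639 without replicate 3. It was 0.181 with TMMwsp scaling and 0.0569 with RLE in the same test. Ccl3, the neighbour of Ccl4 in kind and place, had 24.5 and 0.148 CPM in replicate 1 but 300 and 3335, 816 and 7219, and 134 and 920 CPM in replicates 2, 3 and 7. It did not pass over the 4 pairs (log2 difference 2.63, SE 1.25, adjusted p = 0.874) and did over the 3 pairs of macrophage-set cells (3.62, SE 0.627, adjusted p = 4.2e-06), both in edgeR's quasi-likelihood test. Over all kept cells without replicate 1 it passed as well (3.63, adjusted p = 1.1e-06 in the same test).

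Cytokine and NF-kB genes moved the same way as a list but mostly missed the threshold over 4 pairs. Of 23 tested, 1 rose, 0 fell and 19 had a positive difference, with a median of 2.86. Among macrophage-set cells of 3 pairs, a fit that also lacks replicate 1, 11 of 24 rose, 0 fell, and the median was 4.81. The 11 included Tnf, Il1a, Il1b, Il10, Ptgs2 and the NF-kB feedback inhibitors Tnfaip3 and Nfkbia.

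Tnf, the tumor necrosis factor gene, had 1.97, 49.6, 0 and 12.9 CPM in the blood of replicates 1, 2, 3 and 7 and 51.0, 5417, 975 and 1258 CPM in their lung. The lowest lung sum lay just above the highest blood sum. The log2 difference was 7.61 (SE 1.19, adjusted p = 1.5e-03 in edgeR's quasi-likelihood test), with 0.0956 without replicate 2. At least 100 CPM of Tnf was found in 4 of 83 blood cells and 27 of 55 lung cells. The lung of replicates 4, 5 and 8 had 3581, 1115 and 309 CPM, above the 0.0446 and 36.3 CPM in the blood of replicates 6 and 9.

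Il1b, the interleukin 1 beta gene, and Il10 did not pass over 4 pairs. Both passed over all kept cells without replicate 1 (adjusted p = 1.9e-14 and 5.5e-11 in edgeR's quasi-likelihood test). Il1b had 45.6 and 0.954 CPM in the blood and lung of replicate 1, the reverse of the 1.30 and 2456, 0 and 1317, and 14.8 and 713 CPM of replicates 2, 3 and 7 (adjusted p = 0.348 in edgeR's quasi-likelihood test). Il10, whose product restrains macrophage activation, had at most 0.335 CPM in paired blood and 0.461, 19.5, 809 and 92.2 CPM in paired lung (adjusted p = 0.0575 in the same test). Replicate 1 was the pair with the least of these genes in lung, and 4 of its 6 lung cells carried the fibroblast set.

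Tnfsf9, the 4-1BB ligand of activated myeloid cells, rose from 29.6, 1.49, 0 and 10.4 CPM in the blood of replicates 1, 2, 3 and 7 to 116, 717, 95.8 and 1114 CPM in their lung. The stress genes Gadd45b and Gdf15 rose as well. Gadd45b had 4.73, 30.1, 0 and 0.152 CPM in blood and 362, 388, 46.2 and 234 CPM in lung, and Gdf15 had 0, 0.651, 0.234 and 21.5 CPM in blood and 39.5, 1405, 81.0 and 304 CPM in lung. All 3 were apart between the paired tissues, at adjusted p = 0.0326, 0.0281 and 5.1e-03 in edgeR's quasi-likelihood test. Gadd45b missed the threshold when replicate 2, 3 or 7 was left out, and Gdf15 and Tnfsf9 when replicate 2 or 3 was. Tnfsf9 and Gadd45b also missed with TMMwsp scaling (0.104 for both) and with RLE (0.0605 and 0.0801) in the same test.

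A minority of interferon-induced genes passed, and each lost its call without replicate 3, whose lung had their highest values. Of 26 tested, 3 rose (Rsad2, Oasl1 and Cxcl10), 0 fell and 22 had a positive difference, with a median of 2.69. Over all genes 5165 of 11245 had a positive difference. Rsad2, the antiviral enzyme viperin, had 11526 CPM in the lung of replicate 3 against 59.2 CPM in its blood, 56.5 against 0.00607 CPM in replicate 7, and under 0.5 CPM in both tissues of replicates 1 and 2. Its call was lost without replicate 3, and with TMMwsp or RLE scaling (adjusted p = 0.178 and 0.0875 in edgeR's quasi-likelihood test). Oasl1, an interferon-induced regulator, was at 0 CPM in the blood of replicates 1, 2 and 3 and had 148, 89.9 and 911 CPM in their lung, with 19.4 and 33.9 CPM in replicate 7, and its call was lost without replicate 2 or 3. With TMMwsp scaling it was lost as well (0.120), but not with RLE (0.0480), both in the same test.

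Ifnb1, the interferon beta gene, had 0 counts in all 4 paired blood sums and in the blood of replicates 6 and 9. In lung it had 0, 0, 1775 and 182 CPM in replicates 1, 2, 3 and 7, and 11.3, 27.0 and 0 CPM in replicates 4, 5 and 8. Set against a floor of 3 counts over the paired blood, lung was at least 35354-fold higher, with an adjusted p = 4.1e-04 in edgeR's quasi-likelihood test. Of its 96965 paired lung counts, 8152 were left without replicate 3, where the bound was 3366-fold, and without replicate 7 it was 6752-fold. Without either of these samples Ifnb1 was too low to be tested. It was found at 100 CPM or more in 7 lung cells, and in 0 of 83 blood cells.

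Fth1, the heavy chain of ferritin, stores iron and was abundant in every cell of both tissues. It had 4688 and 13580 CPM in the blood and lung of replicate 1, 3195 and 11241 in replicate 2, 10849 and 18398 in replicate 3, and 3810 and 17999 in replicate 7. The tissues did not overlap among the pairs. The log2 difference was 2.05 (SE 0.381, adjusted p = 9.1e-03 in edgeR's quasi-likelihood test), the smallest difference among the 42 genes, and it missed without replicate 3 (0.0541) or 7 (0.117) and under the RLE scaling (0.0513). Fth1 was the only one of 17 iron-handling genes tested that passed, and the list had a median of 0.78.

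Matrix and cell-surface genes gave 2 rises among 29 tested, with 0 falls and a median of 1.50. Mmp14, a membrane-bound matrix metalloproteinase, had 0.293, 11.2, 1.17 and 0.246 CPM in paired blood and 183, 201, 113 and 260 CPM in paired lung. Sdc4, a heparan sulfate proteoglycan, had 151 and 1133, 343 and 626, 1039 and 4793, and 28.0 and 991 CPM. Mmp14 did not pass among macrophage-set cells (adjusted p = 0.325 in edgeR's quasi-likelihood test), while Sdc4 did at 1.9e-03, and both missed when replicate 2, 3 or 7 was left out. Both also missed with TMMwsp scaling (0.104 and 0.121) and with RLE (0.0914 and 0.122) in the same test. Olfml3, a secreted matrix protein, was at most 22.3 CPM in paired blood and 88.7 to 415 CPM in paired lung (adjusted p = 9.1e-03, and 0.200 among macrophage-set cells, in the same test). It missed without replicate 2 (0.107) or 3 (0.105) in that test.

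**Figure D3:**
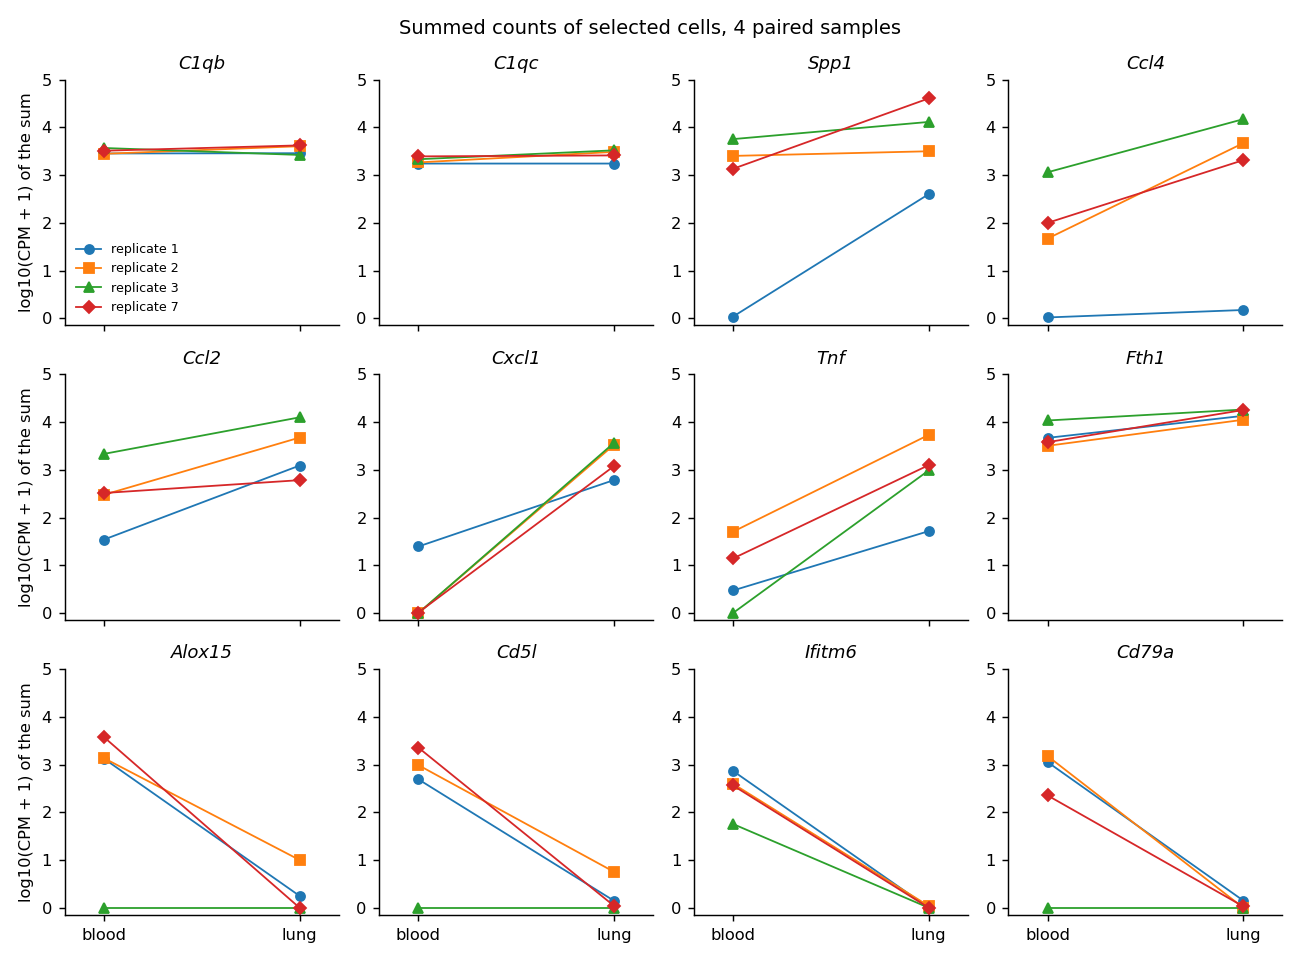
Levels of named genes in the summed counts of kept cells, as log10 of CPM plus 1 (y axis), in blood and lung (x axis), with 1 line per sample holding both tissues. Lines for Ccl4, Tnf and Fth1 go up from blood to lung in every pair and those for Ifitm6 go down in every pair, while the C1qb lines lie close together in both tissues.

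Genes of serous-cavity macrophages went the other way. Of 24 tested, 3 fell in lung (Alox15, Cd5l and F5), 0 rose and 22 had a negative difference, with a median of -6.80 against -0.239 over all genes. Among macrophage-set cells 5 of 22 fell and 0 rose, with a median of -5.14 against -0.54, and the 5 added Prg4 and Saa3.

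Alox15, a lipoxygenase of resident cavity macrophages, had 1338, 1370, 0 and 3788 CPM in the blood of replicates 1, 2, 3 and 7 and 0.773, 9.02, 0 and 0 CPM in their lung. Cd5l, a secreted scavenger-receptor protein of tissue macrophages, had 490, 974, 0 and 2265 CPM in blood and 0.395, 4.64, 0 and 0.0895 CPM in lung. The blood of replicate 3, with its 2 cells, had neither, so the fall rested on 3 of 4 pairs. The log2 difference was -10.59 for Alox15 (SE 1.91, adjusted p = 8.4e-03) and -10.08 for Cd5l (SE 1.68, adjusted p = 3.4e-03) in edgeR's quasi-likelihood test, and its exact size depends on the prior count since lung was near 0. Alox15 missed without replicate 3 (0.0823).

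F5, coagulation factor V, had 109, 187, 0.234 and 606 CPM in paired blood and 0.0658, 0.0562, 0 and 0 CPM in paired lung (adjusted p = 0.0135 in edgeR's quasi-likelihood test, 0.167 without replicate 2 and 0.447 without replicate 7). Prg4, the lubricating glycoprotein of serous surfaces, had 1212, 1239, 0 and 2622 CPM in blood and 146, 0.914, 0 and 0.0224 CPM in lung, and did not pass over 4 pairs (0.0800 in the same test). It did pass over all kept cells without replicate 1 (2.0e-09). Fn1, fibronectin, gave 5678, 6687, 762 and 11932 CPM in blood and 632, 1646, 1772 and 628 CPM in lung, and reversed in replicate 3 (0.816).

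The lung was not without this programme in every sample. Alox15 had 262 CPM, Cd5l 121 CPM and F5 76.6 CPM in the lung of replicate 5, which has no kept blood cells. In blood, replicate 9 was as high as the paired samples, with 2568 CPM of Alox15 and 2212 CPM of Cd5l, and replicate 6 was lower, with 211 and 105 CPM. The summed CPM of Alox15, Cd5l and Prg4 reached 100 in 39 of 83 blood cells, and these were 22 of 35 in replicate 7, 10 of 14 in replicate 9, 3 of 10 in replicate 2, 3 of 19 in replicate 6, 1 of 3 in replicate 1 and 0 of 2 in replicate 3. In lung it was 4 of 55. The C1q genes reached 100 CPM in 38 of the 39 such blood cells.

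Ifitm6 and Mcemp1, both expressed by monocytes and granulocytes, fell in every pair. Ifitm6 had 737, 396, 55.9 and 365 CPM in the blood of replicates 1, 2, 3 and 7 and at most 0.0891 CPM in their lung. It reached 100 CPM in 33 of 50 paired blood cells and in 0 of 34 paired lung cells. Its log2 difference was -14.63 (SE 1.96, adjusted p = 3.9e-04 in edgeR's quasi-likelihood test), and the call held in each fit that left out 1 sample. Mcemp1, which missed without replicate 2 (0.128) or 7 (0.0992), had 316, 142, 119 and 452 CPM in blood and 0.181, 0.0656, 1.40 and 0.157 CPM in lung (adjusted p = 0.0106 in the same test, and 0.109 among macrophage-set cells). The lung samples without kept blood cells had up to 39.4 CPM of Ifitm6 and 72.5 CPM of Mcemp1, so the absence was not shared by all lung samples.

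No other classical monocyte gene passed. Ifitm6 was the 1 call among 14 tested, 3 had a positive difference and the median was -1.66. Ticam2, an adaptor of Toll-like receptor 4, fell from 8.74, 0.0482, 433 and 21.3 CPM to at most 0.0400 CPM (adjusted p = 0.0401 in edgeR's quasi-likelihood test), and most of its signal was in the 2 blood cells of replicate 3. Its call was lost without replicate 2 (0.0935), 3 (0.782) or 7 (0.0816), with thinned cells (0.252) and without fibroblast-set cells (0.110), all adjusted p in the same test. Nin, Rasgrp2 and Itgb7 were also lower in the lung of every pair but did not pass, at adjusted p = 0.0905, 0.0905 and 0.122 in the same test.

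The complement C1q chains were abundant in both tissues and did not pass. C1qb had 2847 and 2884 CPM in the blood and lung of replicate 1, 2800 and 4042 in replicate 2, 3710 and 2653 in replicate 3, and 3251 and 4206 in replicate 7. The log2 difference was 0.56 (SE 0.469, adjusted p = 1.00), and it was 0.81 for C1qc (SE 0.505, adjusted p = 0.992) and 1.33 for C1qa (SE 0.571, adjusted p = 0.768), all in edgeR's quasi-likelihood test. A p that misses the threshold does not show equal levels, and the standard errors leave room for changes of about that size. The share of cells with 100 CPM of the 3 C1q genes together was 100, 100, 100 and 97.1% in the blood of replicates 1, 2, 3 and 7 and 33.3, 53.8, 100 and 100% in lung, a mean difference of -27.5 percentage points (SD 34.4, n = 4; exact sign-flip permutation p = 0.5, where 4 pairs allow no less than 0.125). Replicate 3 had no difference in share, which raises that limit. The low shares were in the 2 paired lung samples with fibroblast-set cells. Among macrophage-set cells the difference was 0 points in 3 pairs. The C1q genes are part of the macrophage set, so the selection favours this value and it decides nothing.

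General macrophage genes gave no call over the 4 pairs. Of 20 core macrophage genes tested 0 passed, 14 had a positive difference and the median was 0.62. Among macrophage-set cells 1 of 20 rose, 18 had a positive difference and the median was 1.04. Lyz2, the macrophage lysozyme gene, had 21898 and 13920, 15289 and 16556, 6862 and 9335, and 24663 and 27193 CPM in blood and lung of replicates 1, 2, 3 and 7, and did not pass (log2 difference 0.47). Its difference was -0.05 with thinned cells, and it passed at an alveolar limit of 100 CPM (0.93, adjusted p = 0.0324) and without fibroblast-set cells (1.18, adjusted p = 1.7e-06) in edgeR's quasi-likelihood test. Cd68 and C1qa also passed without fibroblast-set cells (2.09, adjusted p = 5.4e-03, and 2.05, adjusted p = 0.0205, in the same test). Csf1r, the receptor for the macrophage growth factor, had 431 and 68.0, 890 and 915, 142 and 523, and 1026 and 587 CPM. Its log2 difference of 0.10 (SE 0.886) changed sign with the scaling. Ptprc had 570 and 0.461, 750 and 222, 112 and 435, and 437 and 211 CPM, and its difference of -1.07 turned to 0.69 among macrophage-set cells. Of 17 pan-leukocyte genes 0 passed, with a median of -1.07 that became 0.20 among macrophage-set cells.

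Spp1 was higher in the lung of every pair but spread widely. It had 0.0837 and 399 CPM in the blood and lung of replicate 1, 2531 and 3167 in replicate 2, 5695 and 13046 in replicate 3, and 1358 and 40618 in replicate 7. The tissues overlapped, and the fit over 4 pairs did not pass (log2 difference 3.91, SE 1.10, adjusted p = 0.205 in edgeR's quasi-likelihood test). Among macrophage-set cells of 3 pairs it did (2.33, SE 0.488, adjusted p = 7.2e-04), as it did with each cell thinned to 200000 counts (2.94, adjusted p = 8.8e-05) and without replicate 1 (2.47, adjusted p = 5.4e-05). The blood of replicates 6 and 9 had 374 and 64.6 CPM, and the lung of replicates 4, 5 and 8 had 16249, 26311 and 18314 CPM.

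Other genes of the lipid-associated list followed with smaller differences. Over 4 pairs 0 of 20 passed, 18 had a positive difference and the median was 1.89, and among macrophage-set cells 3 of 19 rose (Spp1, Apoe and Ctsb) with a median of 1.69. Apoe, the lipid-carrying apolipoprotein E, had 3207 and 6229, 9961 and 13080, 6305 and 6048, and 1740 and 13657 CPM in blood and lung of replicates 1, 2, 3 and 7 (adjusted p = 0.261 in edgeR's quasi-likelihood test, 8.0e-04 among macrophage-set cells). Of 29 lysosome genes tested 0 passed, 26 had a positive difference and the median was 1.12, and 12 were higher in every pair, where the background for a gene higher in every pair was 7.36%. Trem2 and Gpnmb, receptors of lipid-laden macrophages, did not pass (adjusted p = 0.722 and 1.00 in the same test), but both did over the 2 pairs with at least 5 cells per sum (0.000778 for Trem2 and 0.0120 for Gpnmb).

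**Figure D4:**
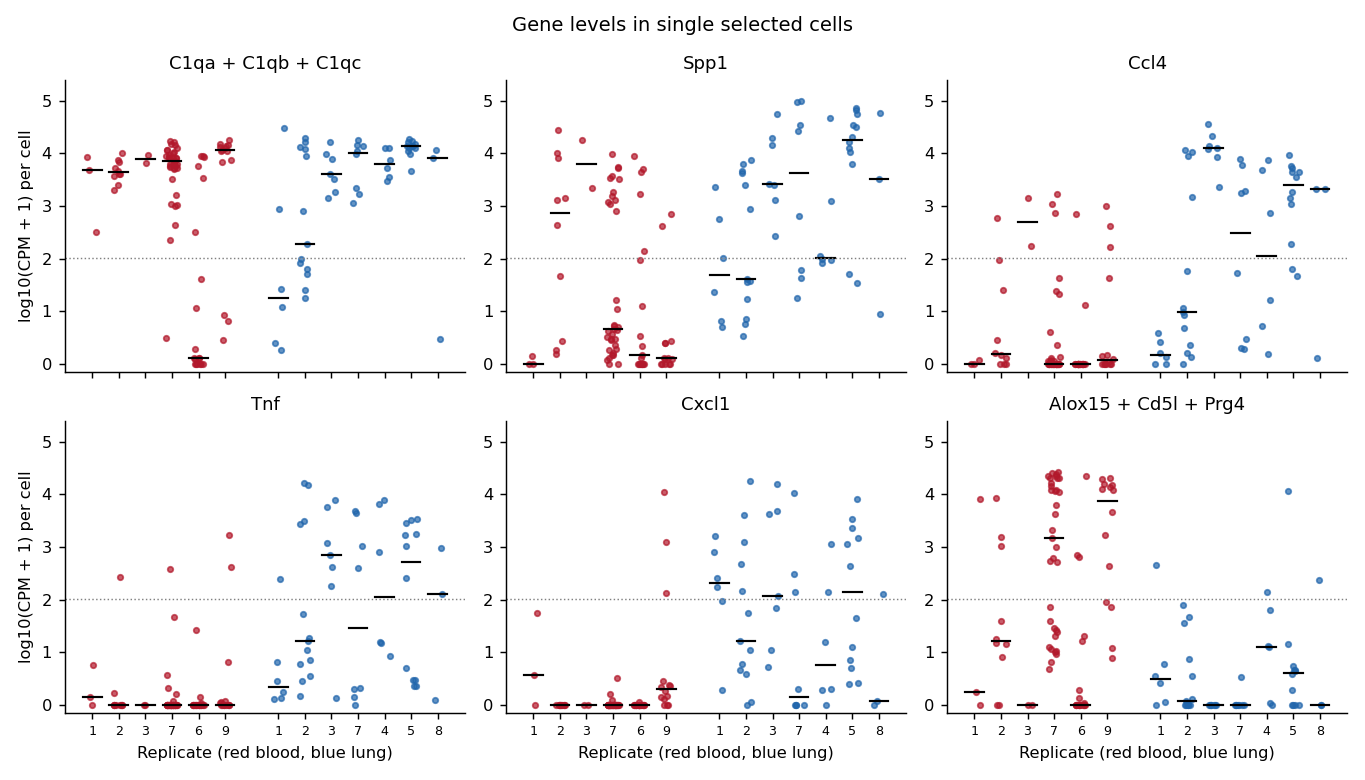
Levels in single kept cells as log10 of CPM plus 1 (y axis) by sample (x axis, replicate number, blood in red and lung in blue) for the 3 C1q genes summed, Spp1, Ccl4, Tnf, Cxcl1, and Alox15, Cd5l and Prg4 summed, with a black bar at the median and a dotted line at 100 CPM. C1q is above the line in 66 of 83 blood and 44 of 55 lung cells, Ccl4 in 10 and 30, Tnf in 4 and 27, and the last sum in 39 and 4.

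Joint detection of Spp1, Ccl4 and Tnf was common in lung cells and rare in blood cells, where few cells held Ccl4 or Tnf at all. Tnf reached 100 CPM in 4 of 83 blood cells and 27 of 55 lung cells. At least 100 CPM of Spp1 was found in 27 of 83 blood cells and 36 of 55 lung cells, and of Ccl4 in 10 and 30. Cells with both numbered 4 in blood and 25 in lung. Cells with both Ccl4 and Tnf numbered 1 in blood and 25 in lung, and cells with both Spp1 and Tnf 0 in blood and 24 in lung. The C1q genes reached 100 CPM in all 10 Ccl4 cells of blood and all 30 of lung. These are counts over cells that share samples, given without a test. With so few Ccl4 and Tnf cells in blood, the low joint counts there do not show that the genes kept apart.

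Over samples, the test of the shares of Spp1 and Ccl4 cells could not decide whether the tissues differed. The share of Spp1 cells was 0, 60.0, 100 and 34.3% in the blood of replicates 1, 2, 3 and 7 and 50, 46.2, 100 and 62.5% in lung, a mean difference of 16.1 points (SD 28.6, n = 4; exact sign-flip permutation p = 0.5). The share of Ccl4 cells was 0, 10.0, 100 and 8.57% in blood and 0, 30.8, 100 and 50% in lung, a mean difference of 15.5 points (SD 19.8, n = 4; exact sign-flip permutation p = 0.5). The Ccl4 share was equal in replicates 1 and 3 and higher in lung by 20.8 and 41.4 points in replicates 2 and 7. With these values the sign-flip permutation could give no p below 0.5, so it decided nothing. For Spp1, replicate 3 had no difference, which raises the limit, and replicate 2 was lower in lung. In replicate 3 every kept cell of both tissues passed 100 CPM of Ccl4, so its pair differed in level (a median of 802 CPM in 2 blood cells and 12477 CPM in 7 lung cells) and not in share. These are 3 of 3 share comparisons made, and their raw p values were alike, so adjustment leaves them at 0.5.

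The serous-cavity and the cytokine lists differed in the tissue where their sums were highest, but some cells carried both. The summed CPM of the 24 serous-cavity genes had a median of 10011 in blood and 2131 in lung, and that of the cytokine and NF-kB list 4517 in blood and 6380 in lung. Among macrophage-set cells the medians were 21248 and 2007 for the first list and 7507 and 15053 for the second. The plot of these sums shows the blood cells spread along the first axis and the lung cells along the second, with overlap at low values. Alox15, Cd5l and Prg4 together reached 100 CPM in 39 blood cells and 4 lung cells. Of the 4 blood cells with 100 CPM of Tnf, 3 were among those 39, and of the 4 lung cells 3 had Tnf and 3 had Ccl4 at that level.

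**Figure D5:**
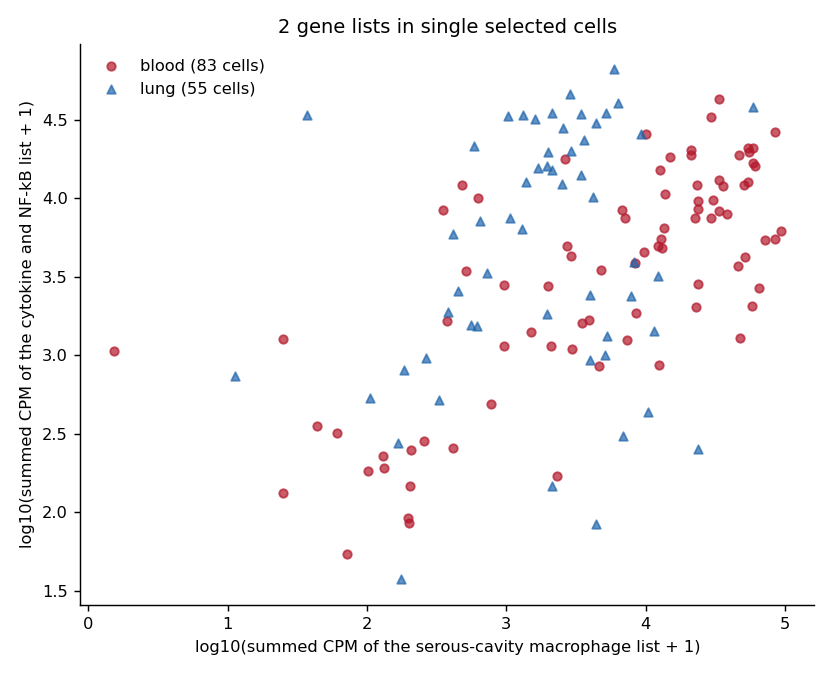
Summed CPM of the cytokine and NF-kB list (y axis) against that of the serous-cavity macrophage list (x axis), both as log10 of the sum plus 1, with 1 point per kept cell, blood and lung in 2 colours. Blood cells reach the highest serous-cavity sums (up to 93856 CPM) and lung cells the highest cytokine sums (up to 65913 CPM).

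B-cell genes made up 9 of the 15 falls when counted with genes high in B cells (Cd79a, Cd79b, Ms4a1, Ltb, Tnfrsf13c, Ly6d, Spib, Gimap3 and H2-DMb2). This grouping was made after the values were seen. Cd79a, a part of the B-cell receptor, had 1128, 1508, 0 and 225 CPM in the blood of replicates 1, 2, 3 and 7 and 0.411, 0, 0 and 0.0671 CPM in lung. Its RNA came from few cells, with 100 CPM in 7 of 50 paired blood cells. Of the 9 genes, none passed without the 11 cells of the B-cell set, 6 were then too low to test, and replicate 1 dropped out of that fit. Cd79a, Cd79b and Ms4a1 define that set, so the loss of their own calls follows from the selection. Of 9 genes of the B-cell list tested, 3 fell, 0 rose and the median was -11.46.

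MHC class II genes, which present antigen to helper T cells and are high in B cells, had lower values in lung. Of 10 tested 1 fell (H2-DMb2), all 10 had a negative difference, 4 were lower in every pair (7.01% of all genes were), and the median was -4.13. H2-Eb1, a class II beta chain, had 4223 and 38.8, 1544 and 172, 193 and 2.52, and 1074 and 298 CPM in blood and lung of replicates 1, 2, 3 and 7, and did not pass (log2 difference -4.04, SE 0.967, adjusted p = 0.0800 in edgeR's quasi-likelihood test). Cd74, the invariant chain, had 13971 and 53.8, 5283 and 927, 1043 and 117, and 3337 and 1168 CPM (adjusted p = 0.201 in the same test). Among macrophage-set cells 0 of 9 passed and the median was -1.34.

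Fibroblast and mesothelial genes accounted for many of the rises. Of the 27, 10 were Mgp, Col6a1, Fstl1, Msln, Upk3b, Serping1, Esam, Efemp1, Aqp1 and Mfap5, grouped after the values were seen, which are high in fibroblasts, mesothelium or endothelium. Mgp, matrix Gla protein, had at most 0.386 CPM in paired blood and 6487, 8622, 0 and 0.224 CPM in the lung of replicates 1, 2, 3 and 7. Upk3b and Msln, markers of mesothelium, the lining of serous cavities, had 846 and 2352 CPM in the lung of replicate 1 and at most 13.9 CPM in the other paired lungs. Of these 10, none passed once the cells with the fibroblast set were left out, and 4 were then too low to test. Mgp is a gene of that set, so the loss of its own call follows from the selection. The fibroblast list had 2 rises and 0 falls among 12 tested, with a median of 13.48, and the mesothelial list 2 rises among 6, with a median of 9.91.

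The chemokine and cytokine calls were also made with those cells left out. Without the cells of the fibroblast set 78 of 10877 genes (0.717%) passed in edgeR's quasi-likelihood test, 27 of them among the 42, and without those of the B-cell set 51 of 10654 (0.479%) passed, 22 of them among the 42. Ccl2, Ccl4, Ccl7, Cxcl1, Cxcl10, Tnf, Tnfsf9, Ifnb1, Fth1, Alox15, Cd5l, F5 and Ifitm6 passed in both. Thinning each cell to 200000 counts, which gives every cell equal weight, left 108 of 9472 genes (1.14%) past the threshold, 37 of them among the 42, and these 13 genes were again among them.

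Cell-cycle, ribosomal, heat-shock and general transcription-factor genes gave 0 calls. The 32 ribosomal protein genes had a median log2 difference of 0.13, the 15 heat-shock genes 0.78, the 23 proliferation genes 1.48 and the 29 macrophage transcription factors -1.35. Of 23 immediate-early genes, which dissociation of tissue can induce, 1 rose (Gadd45b), 12 had a positive difference and the median was 0.10. Of 17 genes of interstitial lung macrophages 0 passed, with a median of 0.78. Ms4a7, a membrane protein of such macrophages, had 0, 88.1, 114 and 3.45 CPM in paired blood and 142, 539, 518 and 536 CPM in paired lung, apart between tissues but not past the threshold (adjusted p = 0.168 in edgeR's quasi-likelihood test).

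The difference of lung from blood was set against that in the DP cells rich in pigment-gene RNA. These numbered 189 in blood and 73 in lung over all samples. Only replicates 3, 5 and 7 entered the fit for them, with 21, 39 and 11 blood cells and 2, 6 and 34 lung cells. Of 13267 genes 0 (0.0%) differed in the lung-blood effect in edgeR's quasi-likelihood test, and 309 had an unadjusted p under 0.05. The closest were C1qc and C1qa, whose effect was lower in the kept cells by 4.32 (SE 0.677) and 5.12 (SE 0.840) on the log2 scale, both at adjusted p = 0.0645 in the same test. Pigment-rich cells with the macrophage set were 2 of 2 in lung and 0 of 21 in blood in replicate 3. They were 2 of 6 and 4 of 39 in replicate 5, and 1 of 34 and 0 of 11 in replicate 7. Their part in the C1q difference was not tested. In the pigment-rich cells C1qb was low, with 0.244 and 3.39, 4.28 and 45.9, and 0.616 and 24.7 CPM in the blood and lung of replicates 3, 5 and 7. Those cells had 0 of 12715 genes (0.0%) past the threshold between their own tissues, with 74 at an unadjusted p under 0.05.

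WBC, the leukocyte class of the sort, numbered 28 in blood and 18 in lung over all samples. The fit used 4, 9 and 4 blood cells and 6, 3 and 9 lung cells of replicates 2, 3 and 5. Against WBC, 4 genes of 11902 (0.0336%) differed in the lung-blood effect. All 4 had a lower effect in the kept DP cells in edgeR's quasi-likelihood test, namely Ccl2 (-19.73, SE 1.83, adjusted p = 1.1e-07), Ccl7 (-17.87, adjusted p = 8.6e-06), the lectin receptor gene Clec4n (-17.75, adjusted p = 0.0210) and Mcemp1 (-10.75, adjusted p = 0.0269). In WBC of replicates 2, 3 and 5, which entered the fit, Ccl2 was at 0 in blood and 476, 14110 and 75.3 CPM in lung. Outside the fit, the blood WBC of replicates 1, 4 and 6 had 193, 2.38 and 20.8 CPM, and that of replicate 1 lay above the 33.6 CPM of the kept blood DP cells of that replicate. Mcemp1 stayed at 987 and 707, 108 and 609, and 514 and 488 CPM in WBC of the 3 samples, while the kept lung DP cells of replicates 1, 2, 3 and 7 had at most 1.40 CPM. Without replicate 3 all 4 calls were lost, at adjusted p = 0.136 for Ccl2, 0.987 for Ccl7, 1.00 for Clec4n and 0.0660 for Mcemp1 in the same test, and Mcemp1 was also lost without replicate 2 (0.421).

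Between their own tissues WBC had 25 of 9761 genes (0.256%) past the threshold. The serous-cavity genes were high in blood WBC as well. Alox15 had 3485, 3944, 1685, 3948, 4702 and 8447 CPM in the blood WBC of replicates 1 to 6, and 1570, 0 and 1105 CPM in the lung WBC of replicates 2, 3 and 5. The test of the lung-blood effect between kept DP cells and WBC did not pass for Alox15 (difference -7.44, SE 3.34) or Cd5l (-6.62, SE 3.20), each with an adjusted p of 1.00 in edgeR's quasi-likelihood test. WBC of these samples were thus not free of the genes that set blood DP cells apart from lung DP cells.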

How the data were processed

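The values were raw read counts per gene and cell, deposited by the authors as 1 table of 648 cells and 21138 genes. Per the submitters' processing notes, Trim Galore, HISAT2, SAMtools, featureCounts, BWA and Picard were used with mm10, with no versions given in the sources used here. Of the nonzero counts 56.7% were even and counts of 2 were 3.59 times as frequent as counts of 1. 

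Cells were chosen by CPM of the 6 genes named in the report. Counts were summed per sample and tissue with at least 2 cells per sum, filtered with filterByExpr, scaled by TMM (factors 0.706 to 1.3554), and fitted by edgeR 4.0.16 (limma 3.58.1, R 4.3.3) with glmQLFit and glmQLFTest and the sample as a block. Per-sample CPM in the text are unscaled, and log2 differences come from the fit. The pairing comes from the shared sample label. The correlation of deviations from the tissue means within a sample was -0.0017, -0.0371, -0.0178 and 0.0789 for replicates 1, 2, 3 and 7 over 11245 genes, and -0.0725 to 0.0485 between samples. DESeq2 1.42.0, other scalings, no filter, no block, other cell limits, thinning and leaving out each sample were alternatives, and the fits without B-cell-marker or fibroblast-marker cells were added after seeing the data. Scripts were tested on simulated data. Python 3.11.15, NumPy 2.4.6, pandas 2.3.3 and SciPy 1.17.1 were used, no doublet caller was run, and positions are those of GENCODE M21, which matched 18884 of 21138 symbols.

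The cells and the gene lists were chosen with earlier results of these data known. Named genes are the 12 largest changes past the threshold in each direction with 1 sign in every pair and at least 20 CPM on average. Where fewer than 5 passed, the 8 with the smallest p were taken. The key genes of each programme and up to 4 members per list were added.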

Additional observations from a re-analysis of the deposited data

Results flagged for a closer look

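Cells with 100 CPM of the C1q genes made up 97.1% of the kept blood cells in replicate 7, against 100% in the other 3 paired blood samples, and this lone lower value is 1 of 35 cells. Cells with 100 CPM of Ccl4 made up 100% in the blood of replicate 3, against 0 to 10% in the other paired blood samples, and rest on 2 of 2 cells. For Rasgrp2, a regulator of integrins, the log2 ratio of lung over blood was -6.99 in replicate 1, far from the other pairs, and for Ccl3 it was -4.35 in replicate 1 while the other 3 pairs were positive. In groups of this size such a gap arises by chance in about 1 in 20 groups.

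The lung-blood difference of kept DP cells was lower than that of WBC for Ccl2 by -19.73, Ccl7 by -17.87, Clec4n by -17.75 and Mcemp1 by -10.75 on the log2 scale, each past the threshold in the test of the difference in edgeR's quasi-likelihood test. Blood WBC had 0 counts of Ccl2, Ccl7 and Clec4n in the 3 paired samples, so the size of these 3 depends on the prior count.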

How the results depend on the processing

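The paired calls moved with the processing. Against 42 calls (27 higher and 15 lower in lung), TMMwsp scaling gave 27 (16 higher), RLE size factors 32, DESeq2 1532 (417 and 1115), no low-count filter 116 (73 and 43), at least 5 cells per sum 150 over 2 pairs (79 and 71), thinning 108 (75 and 33), a pigment limit of 1000 CPM 25 (16 and 9) and an alveolar limit of 100 CPM 71 (49 higher). Without the replicate block the same sums gave 0 (0 and 0), also on the same genes, all samples 9 (1 and 8), and all samples with macrophage-set cells 6 (5 and 1). Macrophage-set cells gave 43 and 7, the fit without B-cell-marker cells 43 and 8, and that without fibroblast-marker cells 78 (52 and 26). Leaving out 1 sample gave 12 to 93 calls, 7 to 69 higher and 5 to 24 lower. The median of all genes was -0.356 with TMMwsp, -0.369 with RLE, -0.424 with DESeq2 and -1.06 without fibroblast-marker cells. Of the 42 genes, 27 kept their call with TMMwsp, 32 with RLE, 39 with DESeq2 and 37 with thinning. The cause of these changes was not tested.

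Against pigment-rich cells (0 calls), TMMwsp and RLE gave 3 each (3 lower), no filter 40 (25 and 15), macrophage-set cells 2 (1 and 1), and leaving out 1 sample 0 to 33 (0 to 30 higher, 0 to 4 lower). Against WBC (4), no filter gave 13 (2 and 11), macrophage-set cells 10 (3 and 7), and leaving out 1 sample 1 to 15 (0 to 3 higher, 0 to 12 lower). At least 5 cells per sum could not be fitted against WBC. The Ccl4 share difference was 37.1 points among macrophage-set cells over 3 pairs.

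Sign changes occurred for genes that did not pass over the 4 pairs: Lyz2 (-0.055 thinned, though it passed at the alveolar limit of 100 CPM with 0.93 and without fibroblast-marker cells with 1.18), Csf1r (-0.024 TMMwsp, -0.035 RLE, -0.035 DESeq2, -0.68 thinned, and -0.77 to 0.86 leaving out 1 sample), Ptprc (0.69 macrophage-set, -2.52 to 0.12 leaving out 1 sample, 0.38 without B-cell-marker cells, 0.59 macrophage-set without block) and Gpnmb (-0.10 to 1.88 leaving out 1 sample, though it passed with at least 5 cells per sum with 3.31). Fstl1, which passed, was -0.049 among macrophage-set cells without block. Sums of 2 to 35 cells limit every comparison, and a gene at 0 in 1 tissue has a fitted size set by the prior count.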
